A study of Mus musculus with 2 samples.

Results

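The apolipoprotein genes are 10 genes chosen by symbol from the 22609 gene symbols counted in mouse liver RNA: Apoa1, Apoa2, Apoa4, Apoa5, Apob, Apoc1, Apoc2, Apoc3, Apoe and Apom. All 10 were detected in both libraries, with between 2590 and 618750 reads each, so none depended on a filter for low counts. Together they took up 6.69% of gene reads in wild type against 6.77% in the library labelled Lrg1 knockout (written below as labelled knockout). The study compared liver of wild-type male C57BL/6 mice (C57BL/6J in the protocol) with liver of male C57BL/6 mice carrying a whole-body knockout of Lrg1, which encodes a secreted leucine-rich glycoprotein. Every mouse ate a diet with 45% of its calories from fat, from 8 weeks of age and for 16 weeks, so no group on an ordinary diet is compared here. There was 1 library per genotype, and the labels do not state how many mice stand behind each. With 1 library per genotype no difference could be tested between genotypes, and each statement below compares these 2 libraries.

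Apolipoproteins are the protein coat of the particles that carry fat and cholesterol through blood. Apolipoprotein B is the large scaffold of very low density lipoprotein (VLDL) that liver secretes, while apolipoproteins A-I and A-II build high density lipoprotein (HDL). Smaller exchangeable members, such as the C apolipoproteins, A-V and E, move between particles and set how fast triglyceride is broken down and how remnants are taken up by liver.

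Reads assigned to genes numbered 23311906 for wild type against 18738397 for the library labelled knockout. Levels are given as CPM, reads scaled to a common library size, after the TMM correction (trimmed mean of M-values) for differences in RNA composition. Beside them stands the share of all gene reads, which is scaled by total count alone. Going from the TMM scale to shares adds 0.08 to every log2 ratio of a member (10 of 10 members). Intervals are exact 95% intervals that cover counting error only, not the spread between mice or preparations, and amplified reads lacking molecular identifiers cannot be taken as separate molecules. Lrg1 had 26958 reads in wild type against 17572 in the other library, a ratio of 0.766 on the TMM scale and 0.811 by share. The reads themselves therefore do not check the knockout label, and directions below hold for the library so labelled. In whole liver, fewer cells of a type and less RNA per cell cannot be told apart.

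The members went in different directions in the library labelled knockout, and their sum hardly differed. Apoa5, Apom, Apoa1 and Apoc1 were higher, while Apoa4, Apoc2, Apoc3, Apoa2 and Apoe were lower on both scales. Apob was lower by the TMM ratio and higher by share. The highest ratio, that of Apoa5, was 1.33, and the lowest, that of Apoa4, was 0.671. No member differed by 2-fold (0 of 10), where 4.20% of the 11411 measured genes (at least 50 reads over both libraries) did, and 2.50% of the 200 most abundant genes. At 1.5-fold the count was also 0 of 10, against 12.8% of measured genes and 8.50% of the 200 most abundant. At a ratio of 5 to 4 or more, either way, it was 4 of 10, namely Apoa5 and Apom higher and Apoa4 and Apoc2 lower, against 31.7% and 28.0%. By shares the genes past 5 to 4 were Apoa1, Apoa5 and Apom higher and Apoa4 lower. The median log2 ratio of the members was -0.09, beside -0.01 for all measured genes and -0.10 for the 200 most abundant. The median size of a difference, in either direction, was 0.24 among members, 0.21 among all measured genes and 0.18 among the 200 most abundant. With 10 members these counts lie near the background at each fold.

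**Figure D1:**
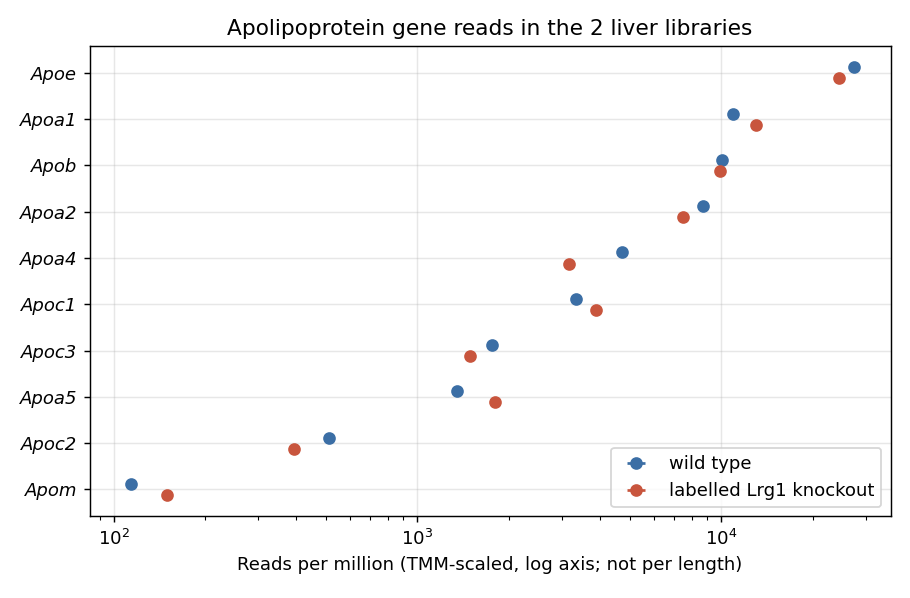
CPM of each apolipoprotein gene (horizontal log axis, TMM, not divided by gene length) in the wild-type library (blue) and the library labelled knockout (red), with exact counting intervals that are mostly narrower than the points. Apoe lies highest in both libraries at 27314 and 24487, and the points of each gene lie close together compared with the span between genes.

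**Figure D2:**
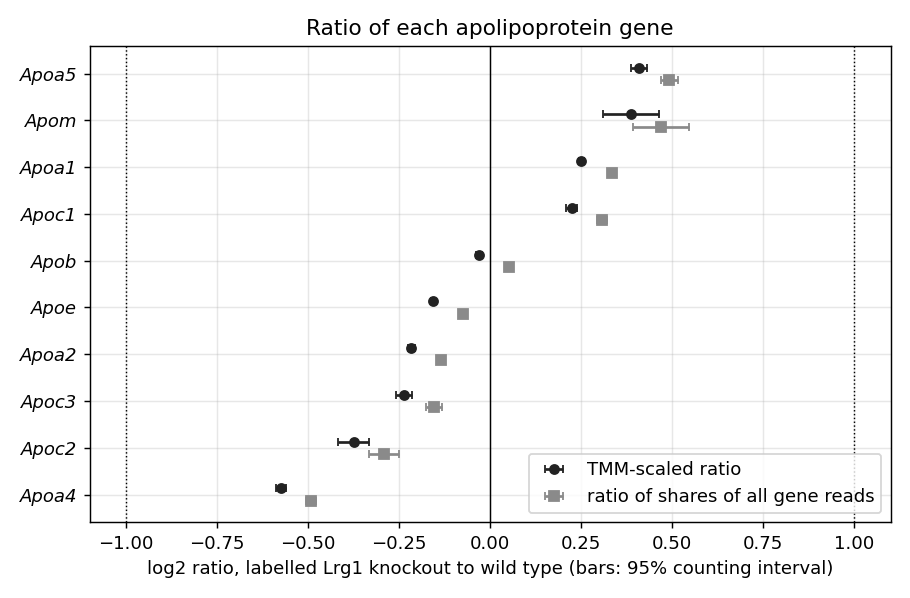
Log2 ratio, labelled knockout over wild type, for each member (horizontal axis), by TMM scaling (black circles) and by share of all gene reads (grey squares), with 95% counting intervals; dotted lines mark 2-fold. No point reaches a dotted line, and Apob is the member whose points lie on opposite sides of 0.

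Sequences upstream of 4 members are shown because they let a reader compare genes whose ratios differed in direction, Apoa5 and Apoa1 above and Apoa2 below wild type on both scales, with Apob near it. They come from RefSeq on GRCm38.p6, plus strand, and end at the base before the annotated start, or before the first exon base in GENCODE M21 where that lies earlier. Apoa5 spans chr9:46268358-46268607, Apoa1 chr9:46228380-46228579, Apoa2 chr1:171224804-171225053 and Apob chr12:7977427-7977647. Capitals mark matches, on either strand, to the short motifs named in the next paragraph.
Apoa5: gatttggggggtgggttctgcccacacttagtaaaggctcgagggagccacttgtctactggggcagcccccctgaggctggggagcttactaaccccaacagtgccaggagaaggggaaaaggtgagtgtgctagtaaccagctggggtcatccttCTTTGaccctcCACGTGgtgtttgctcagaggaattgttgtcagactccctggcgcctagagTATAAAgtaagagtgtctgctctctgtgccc
Apoa1: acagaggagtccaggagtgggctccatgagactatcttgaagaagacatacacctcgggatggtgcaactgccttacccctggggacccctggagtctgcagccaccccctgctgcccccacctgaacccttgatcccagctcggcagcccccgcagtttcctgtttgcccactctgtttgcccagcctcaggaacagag
Apoa2: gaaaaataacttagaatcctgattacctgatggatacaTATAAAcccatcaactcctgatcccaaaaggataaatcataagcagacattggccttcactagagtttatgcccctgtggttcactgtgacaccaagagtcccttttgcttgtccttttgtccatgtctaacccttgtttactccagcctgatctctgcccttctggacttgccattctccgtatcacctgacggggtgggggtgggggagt
Apob: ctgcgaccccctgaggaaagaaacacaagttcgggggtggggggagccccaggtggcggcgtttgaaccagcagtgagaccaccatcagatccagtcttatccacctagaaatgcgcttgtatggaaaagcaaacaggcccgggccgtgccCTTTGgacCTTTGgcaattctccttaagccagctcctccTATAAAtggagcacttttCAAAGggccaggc

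Motifs were searched on both strands in windows from 250 bases before to 50 after each start, of which 12 windows belonged to 8 members; Apoc1 and Apoc3 had none. CAAAG, the core of sites for the liver factor HNF4, was found in 8 of the 12 member windows. These belong to 5 members (Apoa4, Apoa5, Apob, Apoc2 and Apoe), and 53.9% of all 32851 windows hold it. The upstream sequence of Apob holds it 3 times, on either strand, next to a TATAAA. The longer HNF4-specific form CAAAGTCCA was found in 0 member windows and 0.475% of all windows. AGGTCA, the core bound by many nuclear receptors, was found for Apoa2 and Apoc2, in 2 of 12 member windows (16.3% of all windows). For Apoa2 it lies in the other Apoa2 window, not in the sequence above. All 250 bases of that window before its start are exon of the gene Tomm40l. CACGTG, an E-box bound by clock factors and USF, was found only for Apoa5 among these members (7.15% of all windows). Its 2 windows overlap and hold the same site, which begins at position -82 from the start in the sequence above. TATAAA was found for Apoa2, Apoa5, Apob and Apoe, in 5 of 12 member windows (13.6% of all windows). TGACGT (7.51%) and TTATGCAA (0.743%) were found in 0 member windows. CAAAG overlaps every CAAAGTCCA, and no other motif searched contains another. A match is a run of letters, and its use by a factor was not measured. The higher members Apoa5, Apoa1 and Apom had no motif in common in these windows, since those of Apoa1 and Apom held 0 matches. Before its start, however, the Apom window is almost entirely annotated exon of Apom itself, and part of the Apoa1 window is exon of Apoa1. The 0 matches of Apom therefore cannot show whether sequence upstream of its exons holds a motif. Windows of Apoa4, Apob, Apoc2 and Apoe also overlap annotated exons.

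The summed reads of the members were close between the libraries on either scale. They numbered 1558940 reads in wild type against 1267763 in the library labelled knockout. On the TMM scale these are 68819 and 65743 CPM, a ratio of 0.955 (0.953 to 0.958). As shares of gene reads the ratio was 1.01 (1.009 to 1.014), so the direction of the sum is not settled between the scales. Without Apoe the sums were 4.03% and 4.25% of gene reads. Each member's percent of the summed member reads is free of the scaling between libraries. In percentage points of that measure Apoa1 had the largest gain, from 15.9% to 19.7%, and Apoe the largest loss, from 39.7% to 37.2%. These percents share a fixed total, so a gain of any member lowers the others. With Apoa1 left out of the family, the log2 ratio of the Apoe percent moved from -0.09 to -0.02. By ratio the largest loss was that of Apoa4 (log2 ratio -0.51). Apoa4 went from 6.83% to 4.80%, Apoc1 from 4.83% to 5.91% and Apoa2 from 12.7% to 11.4%.

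**Figure D3:**
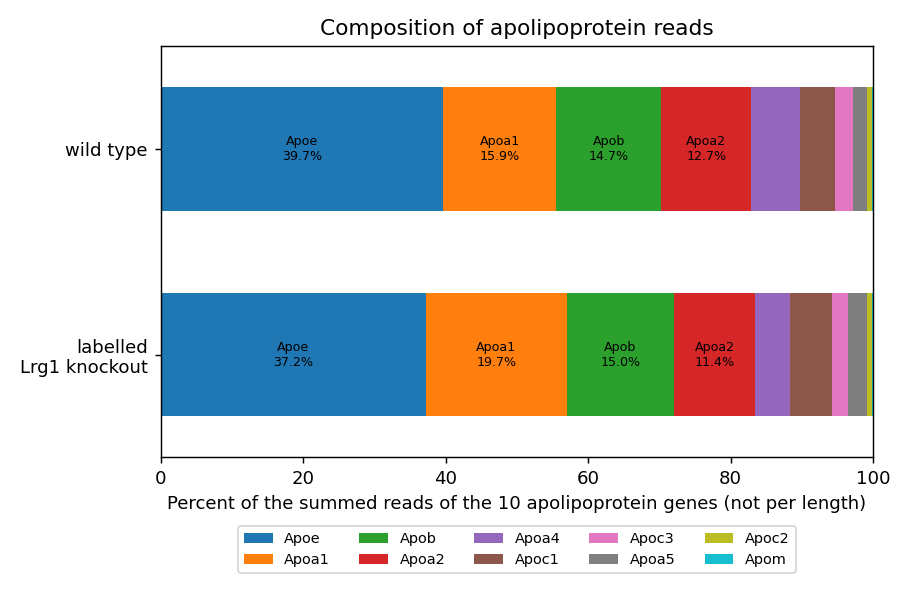
Percent of the summed reads of the 10 apolipoprotein genes taken by each gene (horizontal axis, not per length), in the wild-type library (upper bar) and the library labelled knockout (lower bar). The Apoa1 segment is wider in the lower bar at 19.7% against 15.9%, and the Apoe segment narrower at 37.2% against 39.7%.

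Among the genes of HDL, Apoa1 and Apom were higher and Apoa2 lower in the library labelled knockout. Apoa1, which encodes the main HDL protein and the activator of the cholesterol-esterifying enzyme LCAT, had 247098 reads in wild type against 250325 in the other library. These are 10908 and 12981 CPM, or 1.06% and 1.34% of all gene reads. Its ratio was 1.19 (1.18 to 1.20) on the TMM scale and 1.26 (1.253 to 1.267) by share. Apoa2, the second structural protein of HDL, had 197842 and 144917 reads, 8734 and 7515 CPM, or 0.849% and 0.773% of gene reads. The ratio of Apoa2 was 0.860 (0.855 to 0.866), and 0.911 by share. Reads of Apoa1 per read of Apoa2 therefore moved apart between the libraries, by a factor of 1.38 (1.37 to 1.40) that no scaling can alter. Apom, a lipocalin that carries sphingosine 1-phosphate on HDL, had by far the fewest reads, 2590 and 2885. Its levels were 114 and 150 CPM, 0.0111% and 0.0154% of gene reads, with a ratio of 1.31 (1.24 to 1.38). Apom has the widest interval of the family, yet its lower bound also lies above 1.

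Of the genes of VLDL and its remnants, Apob was nearly level and Apoe somewhat lower. Apob had 228784 reads in wild type against 190646 in the library labelled knockout. Its levels were 10100 and 9886 CPM, and its shares 0.981% and 1.02% of gene reads. The ratio of Apob was 0.979 (0.973 to 0.985) on the TMM scale but 1.04 (1.03 to 1.04) by share, so these libraries give it no settled direction. Apoe, the ligand by which remnants bind hepatic receptors, had 618750 and 472203 reads. That is 2.65% and 2.52% of all gene reads, the second largest number of reads of any gene in either library. At 27314 and 24487 CPM its ratio was 0.896 (0.893 to 0.900), and 0.949 (0.946 to 0.953) by share. In percentage points of gene reads Apoe lost 0.134, about as much as Apoa4 at 0.132, although its ratio was closer to 1.

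The genes that tune triglyceride breakdown differed in opposite ways. Apoa5 encodes an apolipoprotein that favours breakdown by lipoprotein lipase, Apoc2 the cofactor that the lipase needs, and Apoc3 an inhibitor of the lipase and of remnant uptake. Apoa5 had 30648 reads in wild type against 34663 in the library labelled knockout, 1353 and 1798 CPM, or 0.131% and 0.185% of gene reads. Its ratio was 1.33 (1.31 to 1.35), the highest of the family, and 1.41 by share. Apoc3 had 39784 and 28732 reads, 1756 and 1490 CPM, or 0.171% and 0.153% of gene reads. The ratio of Apoc3 was 0.848 (0.836 to 0.861), and 0.898 by share. Reads of Apoa5 per read of Apoc3 were thus 1.57 times higher (1.53 to 1.60) in the library labelled knockout.

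Apoc2 was lower than Apoc3 relative to wild type, so the cofactor and the inhibitor did not differ by one factor. It had 11570 and 7596 reads, 511 and 394 CPM, or 0.0496% and 0.0405% of gene reads. Its ratio was 0.771 (0.749 to 0.794), and 0.817 by share. Apoc2 shares 646 of its 813 merged exon bases with Gm44805, a gene on the same strand in the GENCODE M21 annotation, so how the counting divided those reads is uncertain. Apoc1, which encodes a small protein that hinders remnant uptake, went the other way from Apoc2 and Apoc3. With 75329 and 74912 reads it stood at 3325 and 3885 CPM, or 0.323% and 0.400% of gene reads, and its ratio was 1.17 (1.16 to 1.18). The 3 C genes summed to 0.543% and 0.594% of gene reads, so the higher Apoc1 outweighed the lower Apoc2 and Apoc3 in the sum.

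Apoa4, made in liver and intestine and carried on triglyceride-rich particles and HDL, differed by the largest fold of the 10 members on the TMM scale. It had 106545 reads in wild type against 60884 in the library labelled knockout. These are 4703 and 3157 CPM, or 0.457% and 0.325% of gene reads. The ratio was 0.671 (0.665 to 0.678), a log2 ratio of -0.58, and 0.711 (0.704 to 0.718) by share. Of all measured genes 7.08% had a lower ratio, against 13.6% for Apoc2 and 89.0% for Apoa5. In GENCODE M21, 632 of the 1815 exon bases of Apoa4 are also exon of the antisense gene Gm10680, and 524 of 2522 of Apoa5 of the antisense gene Gm47544. The library kit kept strand, but the strand setting of the counting was not given in the sources used here, so a part of these reads may belong to the antisense genes.

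Apart from these overlaps the members have sequences of their own. Of the windows of 50 bases, the read length, along the reference transcript, 0% were found in a transcript of another gene for Apoa1, Apoa2, Apob, Apoc1, Apoc3, Apoe and Apom. The shares were 60.9% for Apoa4, 17.6% for Apoa5 and 88.2% for Apoc2, in each case with the overlapping genes, Gm47528 included for Apoa4. Repeats elsewhere in the genome were not searched.

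Members that sit in a cluster on a chromosome did not all go in the same direction. Apoa1, Apoc3, Apoa4 and Apoa5 lie in this order on chromosome 9, and their log2 ratios were 0.25, -0.24, -0.58 and 0.41. Apoa4 and Apoa5, which neighbour each other, were the most divergent pair of all 45 pairs of members. There were 3.48 reads of Apoa4 per read of Apoa5 in wild type against 1.76 in the library labelled knockout, a change by a factor of 0.505 (0.496 to 0.515, an interval from the counting errors of all counts involved). On chromosome 7, Apoc2 (-0.37), Apoc4 (0.08, by shares 0.16), Apoc1 (0.22) and Apoe (-0.16) also had both signs. Across the 45 pairs the median change in the ratio of reads was 1.33-fold. Of these pairs 12 changed by at least 1.5-fold, 27 by at least 5 to 4 and 0 by 2-fold. Each member enters several pairs, so the 45 changes are not separate observations. Pairs of other measured genes were not counted, so whether such counts are usual was not tested. The pairs whose ratio changed least were Apoa2 with Apoc3 (1.01, 0.998 to 1.03), Apoa5 with Apom (1.02, 0.961 to 1.07) and Apoa1 with Apoc1 (1.02, 1.01 to 1.03).

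The measured genes next to the chromosome 9 cluster were all higher on the side of Apoa5. Zpr1, listed under its older symbol Zfp259 and encoding a zinc finger protein, had 839 and 1234 reads (log2 ratio 0.79). Bud13, a splicing factor gene, had 114 and 155 reads (0.67), and Cadm1, a cell adhesion gene, 617 and 842 (0.68). On the side of Apoa1 the log2 ratios were -0.12 for the kinase gene Sik3 (the ratio's interval, 0.847 to 1.01, spans 1), 0.23 for Pafah1b2 and 0.17 for Sidt2. Beside the chromosome 7 cluster they ran from -0.67 for Bcam, with 131 and 70 reads, to 0.42 for Relb, with 49 and 56 reads and an interval that spans 1.

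**Figure D4:**
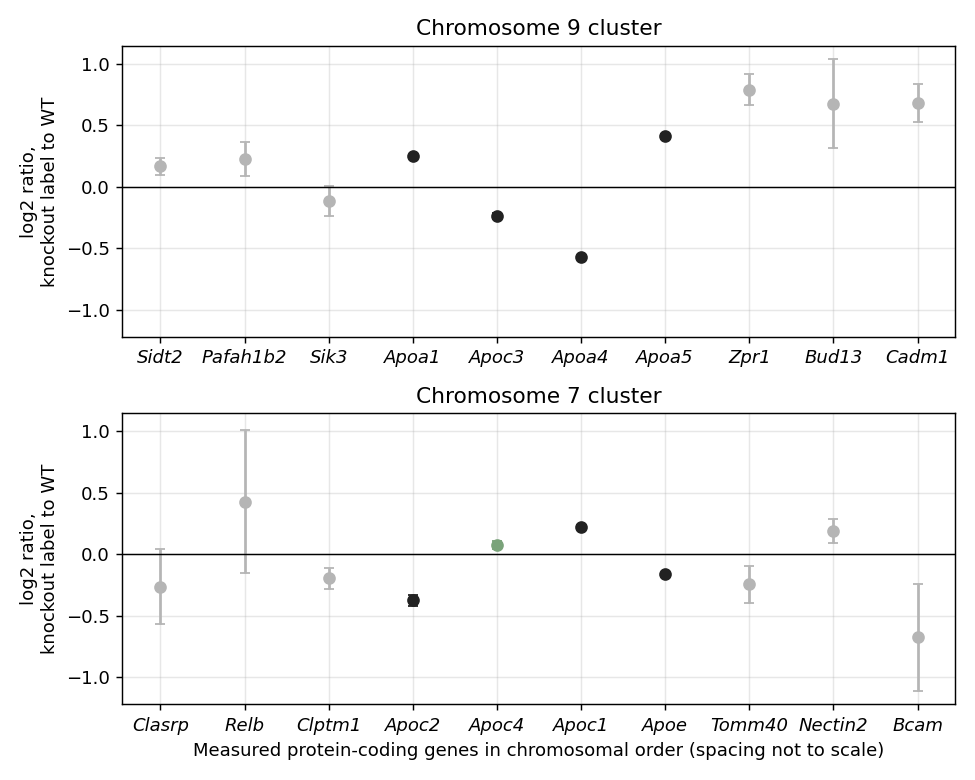
Log2 ratio, labelled knockout over wild type (vertical axis, TMM) for apolipoprotein genes (black), Apoc4 (green) and the 3 nearest measured protein-coding genes on each side (grey), in chromosomal order with spacing not to scale; bars are 95% counting intervals. Apoa4 at -0.58 stands between Apoc3 at -0.24 and Apoa5 at 0.41, and the 3 genes beyond Apoa5 lie at 0.67 to 0.79.

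Levels of different members can be compared only per length. Per kilobase of merged exons, Apoa2 stood highest in both libraries with 16264 and 13995 CPM per kilobase, then Apoe with 12776 and 11453, Apoa1 with 8825 and 10503 and Apoc1 with 4470 and 5221. With the length of the longest transcript or the coding length in place of merged exons, Apoe came before Apoa2 in both libraries, so their order is not settled. Apob, with 13934 exon bases the longest member, stood at 725 and 710 per kilobase, lower than Apoa4 at 2591 and 1740. Apom was lowest under all 3 lengths, at 113 and 148 per kilobase of merged exons. In wild type Apoa5 (536) stood below Apob and Apoc2 (628) by merged exons, while in the library labelled knockout it was about level with Apob at 713 and above Apoc2 at 485.

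Apolipoproteins outside the 10 members differed little, with 1 exception. Of 8 measured genes, the library labelled knockout had 2 higher and 6 lower than wild type, but 5 higher and 3 lower by share. The median log2 ratio of -0.05 likewise turned to 0.03 by total count. Saa4, a constitutive serum amyloid A of HDL, had 15212 reads in wild type against 6573 in the other library (log2 ratio -0.98), the lowest of the list and just short of 2-fold. Apon was at 0.21 and Apof, the gene of lipid transfer inhibitor protein, at -0.17. Of the genes that edit Apob messenger RNA in liver, by which mouse liver also makes the shorter apolipoprotein B-48, 3 of 4 were lower (median -0.12), and 2 of 4 by share. The RNA-binding cofactors Rbm47 and A1cf were at -0.29 and 0.16. The deaminase Apobec1 was at -0.17 and its interval spans 1. Editing itself cannot be read from counts per gene.

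Among assembly and secretion genes 10 of 14 measured were lower (9 by share), 1 was 2-fold higher and 0 were 2-fold lower (median -0.17). Of all measured genes 1.70% were 2-fold higher and 2.50% 2-fold lower, so counts of 0 or 1 in lists of this size lie near that share. Mttp, the transfer protein that loads lipid onto apolipoprotein B, was nearly level at 10798 and 9620 reads (0.07, and 0.15 by share). The gene of its partner subunit, P4hb, was at -0.48 with 44627 and 27240 reads. Tm6sf2, which serves VLDL lipidation, was at -0.64 with 503 and 275 reads, Tmem41b, a lipid scramblase gene, at -0.48 with 204 and 124 reads, and the sorting receptor gene Sort1 was at 1.48 with 182 and 433 reads. Mia3 was listed at 0 reads in both libraries and is not counted among the measured. Of 17 remodelling and lipid transfer genes, 6 were higher and 11 lower (8 and 9 by share; median -0.10), with 1 of them 2-fold lower. That gene was Pltp, the phospholipid transfer protein of HDL, with 1405 and 564 reads (-1.08). Angptl8, listed as Gm6484 and encoding a lipase inhibitor, was at -0.86 and the endothelial lipase gene Lipg at -0.72. Lcat, whose enzyme apolipoprotein A-I activates, was at -0.04 with 10226 and 8495 reads, and at 0.05 by share.

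Of 13 measured genes of lipoprotein receptors and their regulators, 5 were higher and 8 lower, but 7 higher and 6 lower by share. Their median of -0.06 turned to 0.02 by share. Of the 13, 3 were 2-fold lower and 0 were 2-fold higher, beside 2.50% and 1.70% of all measured genes. The VLDL receptor gene Vldlr had 172 and 55 reads (-1.41). Regulators of apolipoprotein transcription were lower in 21 of 30 measured cases (20 by share; median -0.21), 3 of them by 2-fold, beside the 2.50% of all measured genes. The nuclear receptor Nr0b2, a repressor, was at -1.61, the clock repressor Nr1d1 at -1.47 and the coactivator Ppargc1b at -1.32. Of the 9 higher regulators, Onecut1 (0.98, with 261 and 440 reads) and Foxa1 (0.75, with 459 and 656 reads) lay farthest from 0. Hnf4a, a nuclear receptor with sites at many apolipoprotein genes, had 21423 and 12836 reads (-0.51). Creb3l3, a liver factor known to act on Apoa4, Apoa5 and Apoc2, had 14085 and 9659 (-0.31). Among those 3 genes Apoa4 and Apoc2 were lower and Apoa5 higher in the library labelled knockout. Across all measured genes 5516 were higher and 5895 lower, against 6815 and 4596 by share.

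**Figure D5:**
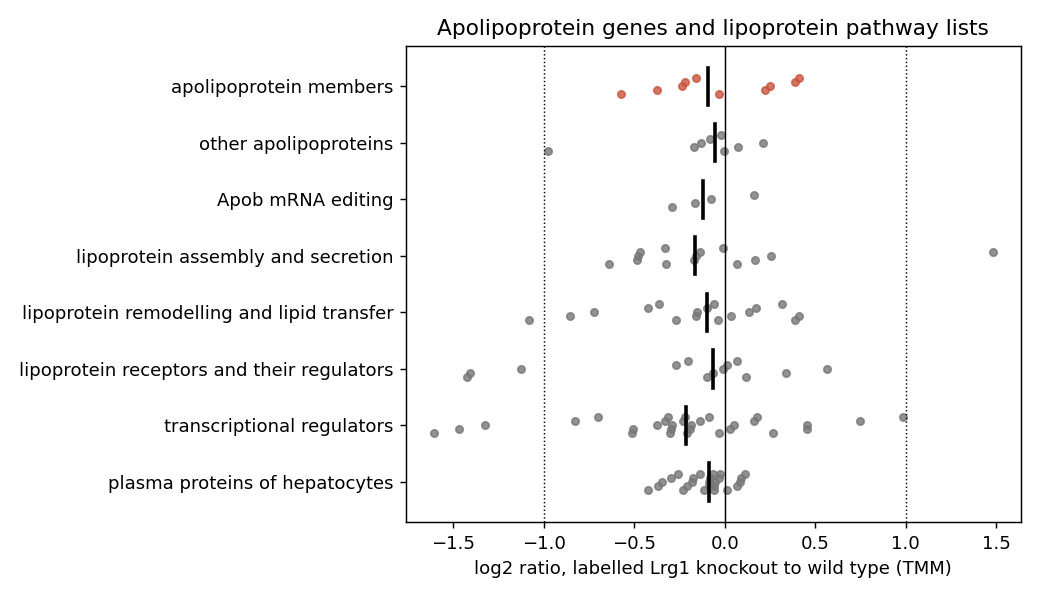
Log2 ratio, labelled knockout over wild type (horizontal axis, TMM) for each measured gene of the apolipoprotein members (red) and of the other lists (grey); black bars are medians, and dotted lines mark 2-fold. The members lie between -0.58 and 0.41, while receptor and regulator lists extend below -1.

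Other plasma protein genes of hepatocytes gave a background for secreted products. Of 25 measured, 5 were higher and 20 lower (11 and 14 by share) with 0 past 2-fold, and their median was -0.08 (and -0.002 by total count). Alb, the albumin gene, had 1793429 and 1241979 reads (-0.30), and the lowest were Hp at -0.42, C3 at -0.37 and Itih4 at -0.34. The highest was Fetub at 0.11, so the ratios of Apoa5, Apom, Apoa1 and Apoc1 lay above that of every gene on this list, and those of Apoa4 below. The list does not hold the 20 major urinary protein (Mup) genes. Their sum went from 0.588% to 1.16% of gene reads (log2 ratio 0.90), above the ratio of every member.

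Markers of cell types were read beside the members. Hepatocyte markers were detected throughout, 12 of 12 measured, with 10 lower and 2 higher (8 and 4 by share; median -0.11; summed level 112345 and 95081 CPM). Alb alone gave 79170 and 64406 of the summed CPM, and the median by share was -0.02. The largest differences among these markers were those of Tat (0.66), Cps1 (-0.54) and Hnf4a. Macrophages also make apolipoprotein E, and most of their markers were lower. Kupffer cell markers were lower in 10 of 13 cases (median -0.27; summed 711 and 596 CPM), and recruited macrophage markers in 8 of 10 measured (median -0.32; summed 178 and 119 CPM), 6 of these 10 with intervals that span 1. Among Kupffer cell markers Marco was at -2.04, Timd4 at -0.77 and Adgre1, listed as Emr1, at -0.74. The 3 higher ones were Fcna (0.40), Clec4f (0.15) and Cd163 (0.14, with an interval that spans 1). Among the recruited Gpnmb was at -1.14, Lyz2 at -1.05 and Cd68 at -0.43. No marker of these lists was at 0 in either library, and their part in the lower Apoe was not tested.

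Sinusoidal endothelial markers were higher in 8 of 10 cases (median 0.59, summed 234 and 351 CPM), Dnase1l3 (1.04), Kdr (1.002) and Fcgr2b (0.79) most. The 2 lower ones were Lyve1 (-0.47) and Gpr182 (-0.02, with an interval that spans 1). Stellate cell and fibroblast markers were higher in 8 of 11 measured cases (median 0.09, but mean -0.02; summed 596 and 614 CPM), while the collagen genes Col1a1 (-1.07) and Col3a1 (-0.56) were lower and Colec11 (0.43) higher. Intestine is the other source of Apoa4, Apoa1 and Apob. Of its markers Lct, Alpi and Cdx2 had 0 reads in both libraries, which allows up to 0.132 and 0.156 CPM (3 counts, a one-sided limit, unlike the intervals above), Cdh17 had 1 and 0 reads and Vil1 5 and 1. The 3 measured ones, Fabp2 (0.21), Anpep (-0.19) and Treh (-1.43), made up nearly all of the summed 375 and 378 CPM of that list. Cholangiocyte (summed 42.8 and 41.2 CPM) and T and B cell markers (4.41 and 5.50 CPM) were scarce, with 2 genes measured in either list, too few to give either list a direction. Adipocyte markers Plin1, Lep and Retn had 0 reads in both libraries. The 3 measured, Cfd (-2.54), Fabp4 (-0.34) and Pck1 (0.58), are not particular to fat tissue in liver, and Pck1 gave most of the summed 2355 and 3482 CPM.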

How the data were processed

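Per the labels, libraries were prepared with a stranded poly(A) kit from about 500 ng of RNA and read as single ends of 50 bases. Raw read counts, 1 line per gene symbol, are what the authors deposited. Per the submitters' processing notes, bcl2fastq, TopHat2, HTSeq and the build mm9 were used; their versions, annotation and strand setting were not given in the sources used here. Lines naming no gene stayed out of library sizes; reads outside genes were 14.0% and 14.4% of unique reads, reads in several genes 0.231% and 0.234%.

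Counts were scaled by TMM in edgeR 4.0.16 (R 4.3.3; factors 0.972 and 1.03), log2 ratios with a prior count of 0.5. Ratios and shares have Clopper-Pearson intervals, counts Poisson intervals, and ratios of pairs Woolf intervals. The rest used scipy 1.17.1 and numpy 2.4.6, with matplotlib 3.10.9 for figures and pandas 2.3.3 for tables, in Python 3.11.15. GENCODE M21 (GRCm38) gave lengths and overlaps, RefSeq (GRCm38.p6) neighbours and upstream sequences; no coordinates of counted features are given because builds differ. The steps were tested on simulated Poisson counts drawn around a shared profile. Such counts hold no spread between mice or preparations, so that test cannot speak to it. Alternatives were total count, DESeq2 1.42.0 size factors, total without the 20 most abundant genes, unique reads, thinning, a prior of 2, other minimum sums, folds, denominators and lengths.

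Named were the 10 members, Lrg1, cluster neighbours, Mttp, Lcat, Pltp, Hnf4a, Creb3l3, Apobec1, Alb and about 3 genes farthest from 0 per list. Others were chosen after their values were seen, namely Apoc4, Mia3, P4hb, Fetub, Onecut1, Foxa1, the Mup sum and pairs of members. So were the 3 higher Kupffer cell markers, the 2 lower sinusoidal endothelial markers and markers at or near 0. Members and lists were chosen with earlier results of these data known. Some genes this rule names in the receptor list are not reported here.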

Additional observations from a re-analysis of the deposited data

Results flagged for a closer look

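Alignments to more than 1 place, which no count per gene includes, were 50.3% of counted lines for wild type against 58.0% for the library labelled Lrg1 knockout. They are listed here only because they lie outside the counts used, and any aligned library holds such lines. A read can enter them more than once, and which genes they came from is not analysed here.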

How the results depend on the processing

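No paired analysis was possible because each group holds 1 library. All alternatives were planned except the 200 most abundant genes as background (2.50% past 2-fold), added after seeing the data. The member sum (log2 ratio -0.07 by TMM) was 0.017 with total counts, -0.0067 without the 20 most abundant genes and 0.0094 by all uniquely aligned reads. Of single members, Apob changed sign under these 3 scalings (0.05, 0.03 and 0.04), and the other 9 kept theirs under all 6 alternatives. Members past a ratio of 5 to 4 numbered 4, and 3 without the 20 most abundant genes; 0 passed 1.5-fold under any scaling run. With minimum sums of 1 and 10 reads, 17.1% and 7.44% of genes passed 2-fold, which follows from more genes with few reads. The member share for wild type, then the library labelled Lrg1 knockout, was 5.74% and 5.77% of unique reads (ratio 1.007), 8.90% and 8.86% without the 20 most abundant genes (0.995), which include 4 members, and 6.73% and 6.85% without Mup genes (1.018). Reads per length of Apoa2 over those of Apoe were 1.27 and 1.22 by merged exons, 0.869 and 0.834 by longest transcript, and 0.975 and 0.936 by coding length. Under total count the medians of other apolipoproteins (0.0313) and of receptors (0.0185) changed sign, and the receptor mean was -0.27. With a minimum of 10 reads the medians of T and B cell (-0.17), cholangiocyte (0.01) and enterocyte markers (-0.19) turned to 0.54, -0.06 and 0.01. For these shifts of scale the cause was not tested. Depth limits little here: 1 read is 0.0441 or 0.0519 CPM, and the fewest reads of a member were 2590.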
